A study of Rattus norvegicus with 17 samples.

Results

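The epidermal growth factor (EGF) receptor family and its ligands were followed in the middle cerebral artery (MCA) of female rats after it had been occluded and reopened. The list held 10 genes. They were the receptor genes Egfr, Erbb2 and Erbb3, the ligand genes Hbegf, Areg, Ereg, Tgfa, Btc and Nrg1, and the receptor inhibitor gene Errfi1. A gene entered when the symbol column of the expression tables gave its name alone. On this rule 6 of the 10 genes (Egfr, Erbb2, Erbb3, Hbegf, Areg and Errfi1) had a probe set, 1 each, with a value on every array, among 13199 genes tested in all. Ereg, Tgfa, Btc and Nrg1 had no probe set in the tables and were not analysed here, and the tables hold only probe sets that passed a filter on low signal. Of 6 further genes of the family, Erbb4 and Egf were measured, while Epgn, Nrg2, Nrg3 and Nrg4 had no probe set in the tables.

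RNA was measured in 17 MCA segments with 1 Affymetrix rat gene array per segment. All rats were female Wistar rats, 12 weeks old and of approximately 250 g, and none was in proestrus, the estrous phase of high estrogen. The controls were 6 MCAs from rats that were not operated. The rats with transient MCA occlusion (tMCAO) had 2 h of filament occlusion and 3 h of reperfusion. The filament was placed under isoflurane, anesthesia was then discontinued, and the rats were anesthetized again for its removal. These rats gave 5 occluded MCAs from the right side and 6 contralateral non-occluded MCAs from the left side. Within each group every MCA came from a different rat. Of the rats with tMCAO, 5 (F8, F10, F12, F15 and F33) gave both arteries, whereas F19 gave only the non-occluded MCA. There was no sham-operated group, so in comparisons with the controls surgery, anesthesia and ischemia cannot be told apart. The 2 arteries of a rat shared its anesthesia, but between them side, surgery and occlusion cannot be told apart. A segment of the artery wall holds smooth muscle, endothelium, adventitia, nerve and blood cells together.

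The EGF receptors are tyrosine kinases of the cell membrane that work in pairs. Egfr binds EGF-like ligands, Erbb3 and Erbb4 bind neuregulins, and Erbb2 binds no ligand of its own but is the favoured partner of the others. The ligands are made as membrane-bound precursors and are released by metalloproteinases of the ADAM family. The active receptors signal through adaptors to RAS-ERK and to PI3K, and are held in check by phosphatases, by ubiquitin-driven endocytosis and by inhibitors such as Errfi1 (also called Mig6), which binds the kinase domain and is itself induced by the pathway. In cerebral arteries Egfr is known from smooth muscle, and HB-EGF, the product of Hbegf, is known as a growth factor for smooth muscle cells.

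The start regions of the 3 genes of the list that rose in the occluded MCAs (Egfr, Hbegf and Errfi1) are printed with that of Areg, which did not pass the test, so that they can be read beside the expression values. They are the RefSeq (build GRCr8) sequences of 250 bases before to 50 bases after the gene start, 5′ to 3′ on the gene's strand, at chr14:95378376-95378675 (plus strand) for Egfr, chr18:28390171-28390470 (minus strand) for Hbegf, chr5:166606591-166606890 (plus strand) for Errfi1 and chr14:17265592-17265891 (minus strand) for Areg. Capitals mark matches to the motifs searched.
Egfr: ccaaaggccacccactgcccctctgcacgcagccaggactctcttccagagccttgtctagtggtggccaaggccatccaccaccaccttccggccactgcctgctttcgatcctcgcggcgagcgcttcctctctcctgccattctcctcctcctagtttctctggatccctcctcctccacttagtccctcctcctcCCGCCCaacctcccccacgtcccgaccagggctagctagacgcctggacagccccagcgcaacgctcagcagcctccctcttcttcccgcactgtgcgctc
Hbegf: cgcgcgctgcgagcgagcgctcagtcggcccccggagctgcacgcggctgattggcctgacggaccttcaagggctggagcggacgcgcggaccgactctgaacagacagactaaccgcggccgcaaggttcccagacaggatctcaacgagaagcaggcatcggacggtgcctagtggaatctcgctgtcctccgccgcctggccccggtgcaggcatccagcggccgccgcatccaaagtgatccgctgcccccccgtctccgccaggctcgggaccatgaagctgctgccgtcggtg
Errfi1: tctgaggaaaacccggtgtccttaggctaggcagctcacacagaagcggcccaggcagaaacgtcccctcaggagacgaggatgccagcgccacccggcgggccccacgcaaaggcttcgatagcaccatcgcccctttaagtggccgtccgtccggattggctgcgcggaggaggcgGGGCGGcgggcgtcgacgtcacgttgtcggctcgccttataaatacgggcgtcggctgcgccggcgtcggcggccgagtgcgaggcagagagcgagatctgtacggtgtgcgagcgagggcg
Areg: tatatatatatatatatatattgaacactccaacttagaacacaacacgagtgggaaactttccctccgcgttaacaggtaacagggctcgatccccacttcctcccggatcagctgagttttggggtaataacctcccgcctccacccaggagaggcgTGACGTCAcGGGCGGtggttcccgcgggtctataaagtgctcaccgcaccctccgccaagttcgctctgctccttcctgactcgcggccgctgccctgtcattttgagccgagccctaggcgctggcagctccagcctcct

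The motifs were TGANTCA (bound by AP-1), TGACGTCA (bound by CREB and ATF factors), TTCNNNGAA (bound by STAT factors), the serum response element core (a CArG box, in 1 fixed spelling of its letters) and GGGCGG (bound by SP1), each searched on both strands. Of the 10 genes 7 had an entry in the sequence table, among them 5 of the 6 measured genes. GGGCGG stood in the windows of Egfr (on the minus strand, 51 to 46 bases before the start), Errfi1 (72 to 67 bases before), Areg (82 to 77 bases before) and Erbb2 (98 to 93 bases before), and 33.1% of all 33469 windows of this length held it. TGACGTCA stood only in the window of Areg among the 5 measured genes with a window, 91 to 84 bases before the start, against 1.83% of all windows. The Hbegf window held none of the 5 motifs, and no window of the measured genes held TGANTCA (7.33% of all windows), TTCNNNGAA (8.87%) or the serum response element core as spelled (0.0329%). These matches describe the letters of the windows and nothing more. The GC content was 64.3% for Egfr, 68.7% for Hbegf, 67.3% for Errfi1, 56.0% for Areg and 71.3% for Erbb2, and the median of all windows was 51.7%.

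The arrays were alike in their overall distribution, with medians between 7.36 and 7.49 on the log2 scale, and each array correlated with the arrays of its own group at a median Pearson's r of 0.96 to 0.99, with control F4 lowest. Leaving out control F4 changed no call of the 8 genes of the family that were measured. The smooth muscle markers stood at a summed log2 signal between 14.6 and 14.9 in all 17 arrays, from 4 of 6 genes with a probe set (Myh11, Tagln, Smtn and Des; Acta2 and Cnn1 had none). Their members moved apart in occluded against control MCAs, with Des higher by 0.46 on the log2 scale (adjusted p = 0.00011) and log2 differences of -0.68 for Smtn (adjusted p = 0.000328) and -0.16 for Myh11 (adjusted p = 0.0457). The summed signal of the endothelial markers (5 of 7 with a probe set) was 12.7 to 12.9 in control, 12.6 to 13.0 in non-occluded and 11.8 to 13.0 in occluded MCAs, and Tek, Tie1 and Cldn5 were lower in the occluded than in the control MCAs. The summed signal of the astrocyte markers (4 of 5) was 8.64 to 10.6 in control, 9.04 to 10.5 in non-occluded and 9.74 to 11.0 in occluded MCAs, and 1 of the 4, Gfap, was higher than in the controls in both. The summed signal of the neutrophil markers (2 of 7, S100a9 and Csf3r) was 5.98 to 6.17 in control, 6.29 to 7.35 in non-occluded and 6.59 to 7.71 in occluded MCAs, and 1 of the 2, S100a9, was higher than in the controls in both. Of the 5 pericyte markers, in occluded against control MCAs, Kcnj8 and Abcc9 were higher (log2 differences 1.73 and 1.07) and Pdgfrb was lower (-1.08), with summed signals of 12.1 to 12.5 in control, 12.1 to 12.4 in non-occluded and 11.8 to 12.2 in occluded MCAs. Of the 8 macrophage markers, Cd163 was higher than in the controls in both arteries and Cx3cr1 was lower in the occluded MCAs. The neuron markers Snap25 and Syt1 (2 of 4) were higher in occluded than in control MCAs (log2 differences 0.57 and 0.36), and the fibroblast markers Col1a1 and Col1a2 (2 of 6) were lower. The part of these shifts in the results on the receptor family was not tested. In whole segments, fewer cells of a type and less RNA per cell cannot be told apart.

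In the occluded MCAs 3 of the 6 measured genes of the list rose against the control MCAs (Egfr, Errfi1 and Hbegf), Erbb3 fell, and Erbb2 and Areg did not pass the test. A gene counts as risen or fallen at a limma p under 0.05 after Benjamini-Hochberg adjustment over all probe sets. Of the 13199 genes in this comparison, 19.3% rose and 22.9% fell, and for 12.6% all occluded arrays lay above all controls, which held for Egfr and Errfi1 of the list. In the non-occluded MCAs only Errfi1 of the 6 genes rose against the controls, where 1.79% of all genes rose and 2.12% fell. These shares are 236 higher and 280 lower genes, and they become 301 higher and 164 lower genes when each array is centred on its median. Between occluded and non-occluded MCAs, Egfr and Hbegf were higher in the occluded arteries and no gene of the list was lower, with 17.1% of all genes higher and 15.7% lower. The occluded arrays lay above all non-occluded ones for both genes, and for 11.6% of all genes. The median log2 difference of the 6 genes was 0.39 against -0.02 for all genes in occluded against control, -0.06 against -0.01 in non-occluded against control, and 0.22 against -0.02 in occluded against non-occluded MCAs. The first 2 comparisons share the control arrays, and the third shares its arrays with both.

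**Figure D1:**
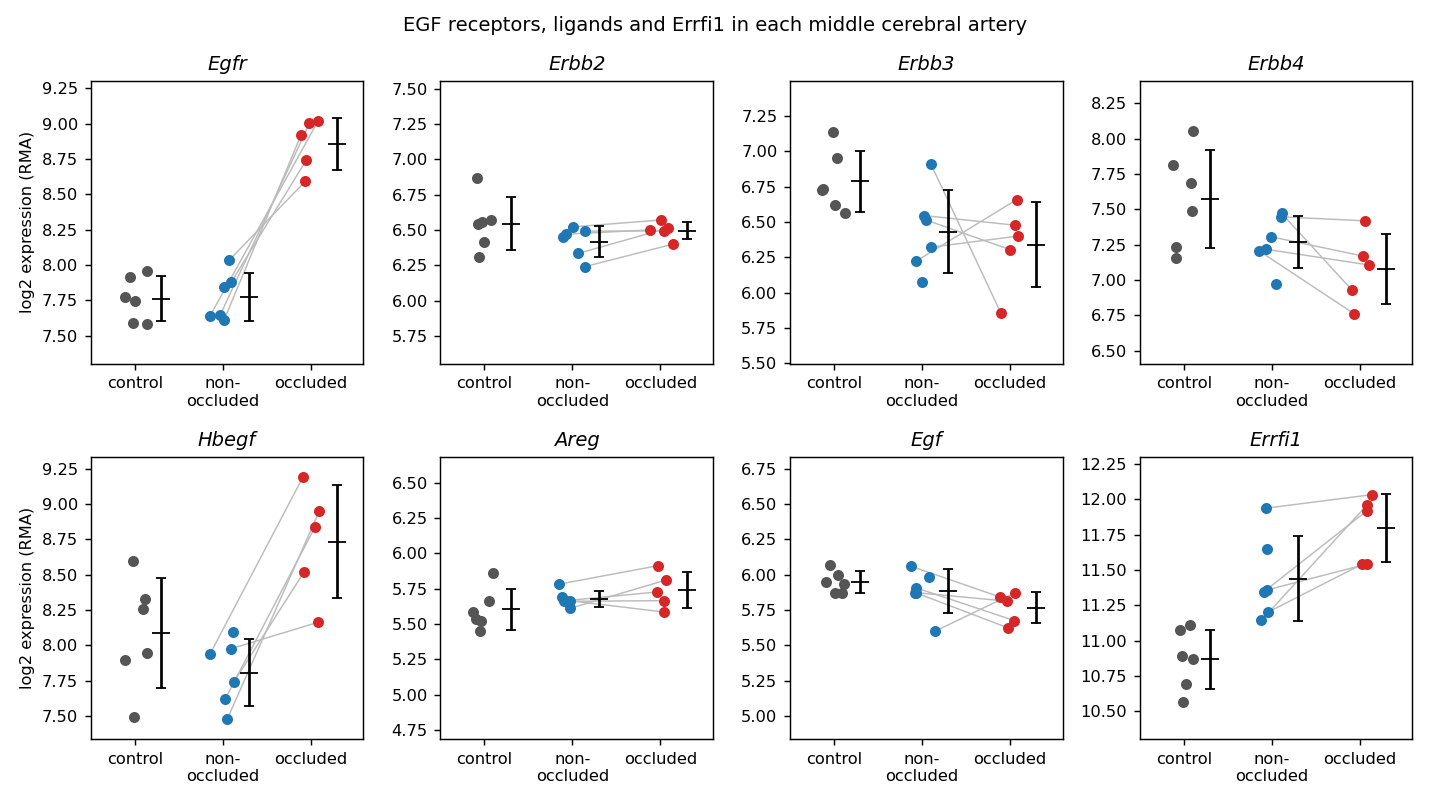
Expression of 8 genes of the EGF receptor family in every array (vertical axes, log2 RMA values, each panel spanning 2 log2 units). Points are arteries, grey lines join the 2 arteries of a rat, and bars show the group mean with its SD. The 5 occluded values of Egfr (8.59 to 9.02) lie above all other arrays, and the occluded and non-occluded values of Errfi1 lie above all controls.

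Egfr, the receptor for EGF, HB-EGF and amphiregulin, was higher in the occluded MCAs and at control level in the non-occluded MCAs. Its probe set (17691651, chromosome 14, 97617358 to 97788213, plus strand) read 7.75, 7.96, 7.78, 7.58, 7.92 and 7.59 in control MCAs F36, F26, F16, F22, F21 and F4. The non-occluded MCAs F12, F15, F33, F10, F8 and F19 read 7.88, 7.65, 7.61, 7.64, 8.04 and 7.84. The occluded MCAs F12, F10, F8, F15 and F33 read 8.74, 9.02, 8.59, 9.00 and 8.92. All 5 occluded values lay above all 12 others, while the control and non-occluded values lay over each other. All values here are log2 expression.

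The group means of Egfr were 7.76 ± 0.16 (SD, n = 6) in control, 7.78 ± 0.17 (SD, n = 6) in non-occluded and 8.86 ± 0.18 (SD, n = 5) in occluded MCAs. The occluded mean was 2.13-fold that of the controls (log2 difference 1.09, SE 0.10, adjusted p = 1.32e-07, limma). This was the 354th highest difference of the 13199 genes, and 4.82% of all genes differed at least 2-fold in either direction in this comparison. Against the non-occluded MCAs it was 2.11-fold higher (log2 difference 1.08, SE 0.10, adjusted p = 3.12e-07). Between non-occluded and control MCAs the log2 difference was 0.01 with a 95% interval of -0.19 to 0.21 (adjusted p = 0.96). Within the rats, the occluded minus the non-occluded artery was 0.56 in F8, 0.86 in F12, 1.31 in F33, 1.35 in F15 and 1.38 in F10. Each of the 5 rats had the higher value in its occluded artery, and F8 had both the highest non-occluded and the lowest occluded value. The endothelial markers summed to 13.0 in occluded F12 and to 11.8 to 12.4 in the other 4 occluded MCAs, and their part in the Egfr values was not tested.

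Erbb2, the receptor that serves as partner of the others, showed no difference that passed the test. Its probe set (17650792, chromosome 10, 87219157 to 87242919, plus strand) gave 6.56, 6.87, 6.54, 6.57, 6.31 and 6.41 in control MCAs F36, F26, F16, F22, F21 and F4. In the non-occluded MCAs F12, F15, F33, F10, F8 and F19 it gave 6.24, 6.49, 6.34, 6.52, 6.47 and 6.45, and in the occluded MCAs F12, F10, F8, F15 and F33 it gave 6.40, 6.57, 6.50, 6.49 and 6.51. The 3 groups overlapped, with control F26 highest. Some values lay below 6.37, the cut that an alternative fit used to set aside dim probe sets. The log2 difference was -0.05 for occluded against control (SE 0.082, adjusted p = 0.68), -0.13 for non-occluded against control (SE 0.078, adjusted p = 0.409) and 0.08 for occluded against non-occluded MCAs (SE 0.082, adjusted p = 0.516). The 95% intervals ran from -0.22 to 0.12, from -0.29 to 0.04 and from -0.10 to 0.25.

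Erbb3, a neuregulin receptor with a weak kinase of its own, fell in the occluded MCAs. Its probe set (17832998, chromosome 7, 1858057 to 1877353, minus strand) read 6.95, 6.56, 6.73, 6.62, 7.14 and 6.73 in control MCAs F36, F26, F16, F22, F21 and F4. The non-occluded MCAs F12, F15, F33, F10, F8 and F19 read 6.51, 6.32, 6.54, 6.22, 6.91 and 6.08, and the occluded MCAs F12, F10, F8, F15 and F33 read 6.30, 6.66, 5.86, 6.40 and 6.48. Of the 5 occluded values 4 lay below all controls, and occluded F10 lay among them. The occluded mean of 6.34 ± 0.30 (SD, n = 5) was 1.37-fold lower than the control mean of 6.79 ± 0.22 (SD, n = 6), with a log2 difference of -0.45 (SE 0.15, adjusted p = 0.0236, limma). The call was lost without control F21 (log2 difference -0.38, adjusted p = 0.0564) and without occluded F8 (log2 difference -0.33, adjusted p = 0.0769). The occluded mean lay just below the cut for dim probe sets (6.37), so the fall reached into dim signal. The non-occluded mean of 6.43 ± 0.29 (SD, n = 6) did not pass the test against the controls (log2 difference -0.36, SE 0.14, adjusted p = 0.188). The occluded and non-occluded means lay within their spread, with a log2 difference of -0.09 (SE 0.15, adjusted p = 0.69).

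In whole arteries Erbb3 is known as a receptor of Schwann cells, so the markers of nerve are given beside it. The summed signal of the Schwann cell and nerve markers (9 of 10 with a probe set) was 10.5 to 11.0 in control, 10.1 to 11.0 in non-occluded and 9.71 to 11.5 in occluded MCAs. Of the 9 genes only Gfra3, a receptor of peripheral nerve, passed the test against control. Its log2 difference was -1.22 in occluded (adjusted p = 2.51e-06) and -0.80 in non-occluded MCAs (adjusted p = 0.00287). Occluded F8 had the lowest summed marker signal (9.71) and the lowest Erbb3 value (5.86) of all arrays, while its non-occluded artery had the highest of the non-occluded MCAs in both (11.0 and 6.91). Occluded F33 and F10 had the highest summed signals of all arrays (11.5 and 11.1). Their Erbb3 values (6.48 and 6.66) were the highest of the occluded MCAs. Beside the controls, 6.48 in F33 lay below all of them and 6.66 in F10 lay among them. The Schwann cell factor gene Sox10 had a log2 difference of 0.11 (adjusted p = 0.49) in occluded against control MCAs. Of the 6 oligodendrocyte markers, Cnp was lower (log2 difference -0.55, adjusted p = 0.00495) and Mobp was higher (0.38, adjusted p = 0.0462) in this comparison. The others did not pass the test. The part of nerve or oligodendrocyte content in the Erbb3 values was not tested.

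**Figure D2:**
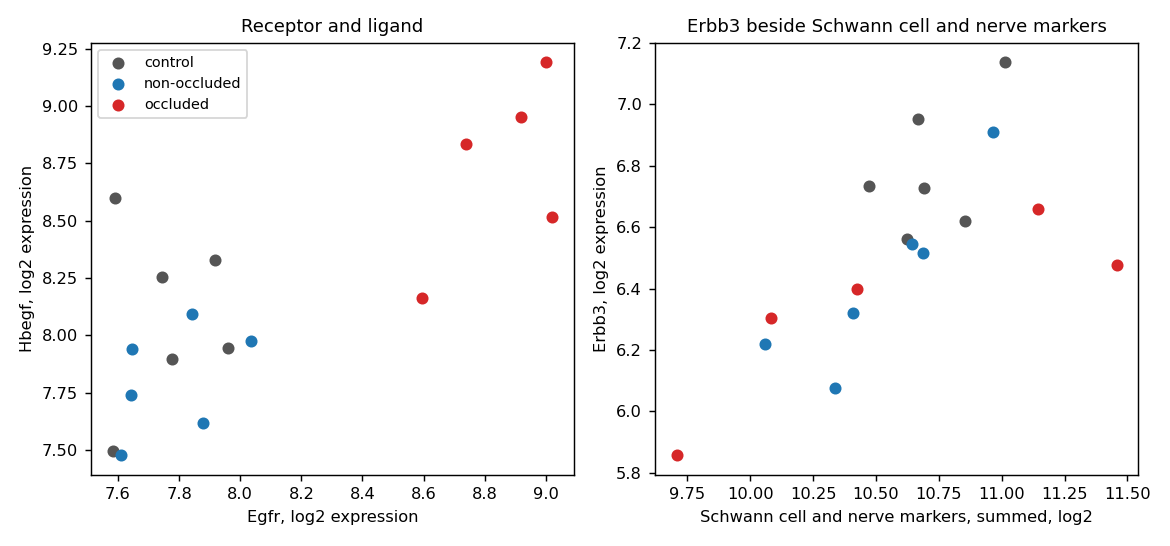
Left, log2 expression of Egfr (horizontal) and Hbegf (vertical). Right, the summed log2 signal of 9 Schwann cell and nerve markers (horizontal) and log2 expression of Erbb3 (vertical). Each point is 1 of 17 arteries, colored by group, and the occluded artery of F8 lies lowest for Erbb3 (5.86) and for the markers (9.71). The occluded artery of F33 lies highest for the markers (11.5), with Erbb3 at 6.48.

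Erbb4, the other neuregulin receptor, was not on the list of 10 and had its group means in the same order as those of Erbb3. Its probe set (17865182, chromosome 9, 66843898 to 67967970, minus strand) read 7.68, 7.16, 7.49, 7.23, 7.82 and 8.05 in control MCAs F36, F26, F16, F22, F21 and F4. The non-occluded MCAs F12, F15, F33, F10, F8 and F19 read 7.45, 7.47, 7.31, 7.22, 7.21 and 6.97, and the occluded MCAs F12, F10, F8, F15 and F33 read 7.42, 7.11, 6.76, 6.93 and 7.17. The groups overlapped, and the occluded minus the non-occluded artery was -0.54 to -0.03, below 0 in each of the 5 rats. Erbb4 fell in the occluded MCAs against control (log2 difference -0.50, SE 0.15, adjusted p = 0.0132, limma), and neither the non-occluded MCAs against control (log2 difference -0.30, adjusted p = 0.268) nor the occluded against the non-occluded MCAs (log2 difference -0.19, adjusted p = 0.358) passed the test.

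Hbegf, the gene of the heparin-binding ligand of Egfr and Erbb4, rose in the occluded MCAs. Its probe set (17725668, chromosome 18, 29143567 to 29153944, minus strand) read 8.25, 7.94, 7.90, 7.49, 8.33 and 8.60 in control MCAs F36, F26, F16, F22, F21 and F4. The non-occluded MCAs F12, F15, F33, F10, F8 and F19 read 7.62, 7.94, 7.48, 7.74, 7.98 and 8.09. The occluded MCAs F12, F10, F8, F15 and F33 read 8.84, 8.52, 8.16, 9.19 and 8.95. Of the 5 occluded values 3 lay above all controls, and all 5 lay above all non-occluded values, with occluded F8 nearest to them.

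The means of Hbegf were 8.09 ± 0.39 (SD, n = 6) in control, 7.81 ± 0.24 (SD, n = 6) in non-occluded and 8.73 ± 0.40 (SD, n = 5) in occluded MCAs. The occluded mean was 1.56-fold that of the controls (log2 difference 0.64, SE 0.19, adjusted p = 0.0112, limma) and 1.90-fold that of the non-occluded MCAs (log2 difference 0.92, SE 0.19, adjusted p = 0.00109). The non-occluded mean did not pass the test against the controls (log2 difference -0.28, SE 0.18, adjusted p = 0.432). The occluded minus the non-occluded artery was 0.19 in F8, 0.78 in F10, 1.22 in F12, 1.25 in F15 and 1.47 in F33. The rat with the smallest difference in Hbegf, F8, was also that with the smallest difference in Egfr. F10 had the largest difference in Egfr (1.38) but the next smallest in Hbegf (0.78). With the group means removed, Egfr and Hbegf had a Pearson's r of 0.36 over the 17 arrays.

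Areg, the gene of the ligand amphiregulin, showed no difference that passed the test. Its probe set (17693425, chromosome 14, 18466313 to 18475571, minus strand) gave 5.45 to 5.86 in control, 5.61 to 5.78 in non-occluded and 5.59 to 5.91 in occluded MCAs, and the groups overlapped throughout. All of these values lay below 6.37, the cut that an alternative fit used to set aside dim probe sets. At so dim a signal, an unchanged gene and one too weak to read cannot be told apart. The log2 difference was 0.14 for occluded against control (95% interval -0.02 to 0.29, adjusted p = 0.15), 0.08 for non-occluded against control (adjusted p = 0.599) and 0.06 for occluded against non-occluded MCAs (adjusted p = 0.572). Without control F26, which had the highest control value, the first of these passed the test (log2 difference 0.19, adjusted p = 0.0263).

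Egf, the gene of the founding ligand, was not on the list of 10. Its probe set (17751329, chromosome 2, 227103840 to 227195062, minus strand) gave 5.87 to 6.07 in control, 5.60 to 6.06 in non-occluded and 5.62 to 5.87 in occluded MCAs. As for Areg, all values lay below the cut for dim probe sets (6.37). The log2 difference was -0.18 for occluded against control (SE 0.075, adjusted p = 0.0603), -0.06 for non-occluded against control (adjusted p = 0.674) and -0.12 for occluded against non-occluded MCAs (adjusted p = 0.252). Without occluded F12, which had the highest occluded value, the first of these passed the test (adjusted p = 0.0454).

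Errfi1, the gene of the inhibitor that binds the receptor kinase domain, rose in both arteries of the rats with tMCAO. Its probe set (17804459, chromosome 5, 168012683 to 168025963, plus strand) read 10.57, 10.69, 10.87, 11.11, 11.07 and 10.89 in control MCAs F36, F26, F16, F22, F21 and F4. The non-occluded MCAs F12, F15, F33, F10, F8 and F19 read 11.20, 11.14, 11.35, 11.94, 11.36 and 11.65. The occluded MCAs F12, F10, F8, F15 and F33 read 11.54, 12.03, 11.54, 11.96 and 11.92. All 11 arteries of the operated rats lay above all 6 controls, and the occluded and non-occluded values overlapped. All arrays of the group lay above all controls for 1.36% of all genes in non-occluded MCAs and for 12.6% in occluded MCAs.

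The means of Errfi1 were 10.87 ± 0.21 (SD, n = 6) in control, 11.44 ± 0.30 (SD, n = 6) in non-occluded and 11.80 ± 0.24 (SD, n = 5) in occluded MCAs. The occluded mean was 1.91-fold that of the controls (log2 difference 0.93, SE 0.14, adjusted p = 4.38e-05, limma). The non-occluded mean was 1.49-fold that of the controls (log2 difference 0.57, SE 0.14, adjusted p = 0.0255), the 150th highest difference of all genes in this comparison. This second call was lost without control F36 (adjusted p = 0.0581), without control F26 (adjusted p = 0.051) and without non-occluded F19 (adjusted p = 0.0575). Between occluded and non-occluded MCAs the log2 difference was 0.36 (95% interval 0.06 to 0.66, adjusted p = 0.0636), and it passed the test with the rat as a random block (0.37, adjusted p = 0.0177) and within the 5 rats with the rat as a fixed block (0.40, adjusted p = 0.0174). It also passed without non-occluded F10, occluded F12 or occluded F8. The occluded minus the non-occluded artery was 0.10 in F10, 0.18 in F8, 0.34 in F12, 0.57 in F33 and 0.82 in F15. The summed neutrophil markers also lay above all controls in every artery of the operated rats, with S100a9 higher by 1.17 in non-occluded (adjusted p = 0.0168) and by 1.49 in occluded MCAs (adjusted p = 0.000216) on the log2 scale, and the macrophage marker Cd163 was higher in both arteries too (1.13, adjusted p = 0.0107, and 1.44, adjusted p = 0.000109). The part of these markers in the Errfi1 values was not tested.

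**Figure D3:**
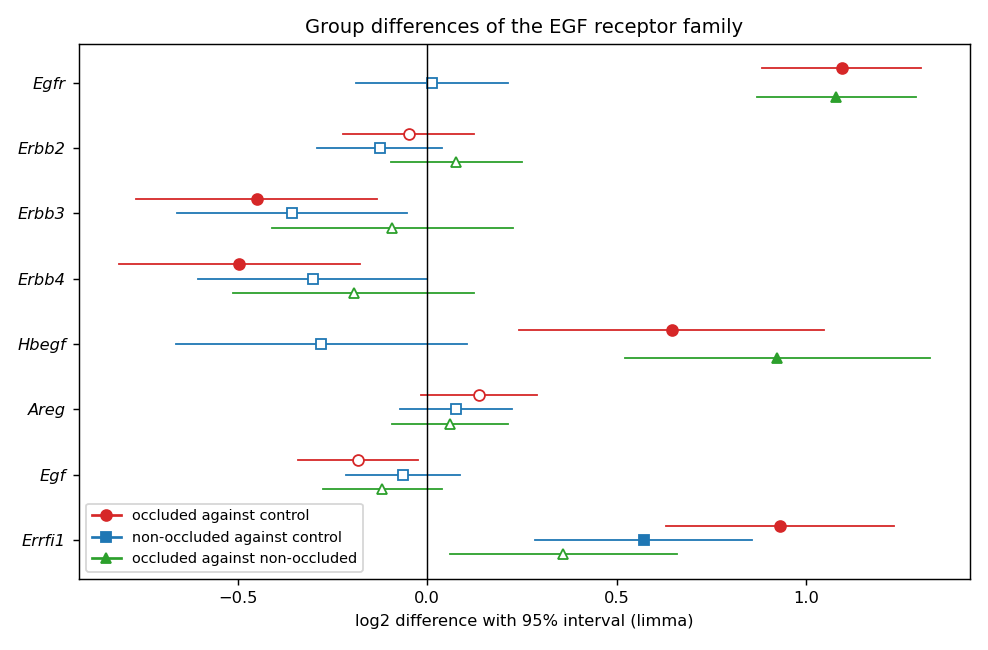
Log2 differences between groups (horizontal axis) with 95% intervals from limma for 8 genes of the family. Filled symbols mark an adjusted p under 0.05 and open symbols the others, and Errfi1 is the only gene with a filled symbol for non-occluded against control MCAs.

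For each gene of the list that passed a test, the genes with the most similar profile were found by Pearson's r over the 17 arrays. These values describe the profile and carry no p, since arrays of a group, and the 2 arteries of a rat, share their source. Over all arrays the closest to Egfr were Pop1 (a subunit of RNase P and RNase MRP), Uchl3 (a ubiquitin hydrolase) and Ugdh (UDP-glucose dehydrogenase), each at r = 0.97. All 3 were higher in occluded than in control MCAs, by 1.30, 0.97 and 1.40 on the log2 scale (adjusted p = 3.02e-08, 1.85e-07 and 6.8e-08), and had log2 differences of 0.14, 0.08 and -0.02 in the non-occluded MCAs (adjusted p = 0.479, 0.659 and 0.964). With the group means removed, the closest to Egfr were Pcdh17 (r = 0.82), Slmo1 (0.78) and Stxbp6 (0.77). Unlike Egfr, Pcdh17 and Stxbp6 were lower in occluded than in control MCAs (log2 differences -0.23 and -0.81, adjusted p = 0.0191 and 2e-07). Slmo1 did not pass the test there (-0.14, adjusted p = 0.149).

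The closest to Errfi1 over all arrays were Nfkbia, the gene of the NF-kappaB inhibitor (r = 0.93), the kinase gene Map3k6 (0.92) and Rapgef3, the gene of the cyclic AMP sensor Epac1 (0.92). All 3 rose in both arteries, with log2 differences of 0.98, 2.15 and 0.83 in occluded (adjusted p = 2.28e-05, 8.26e-09 and 0.000174) and 0.59, 1.29 and 0.52 in non-occluded MCAs against control (adjusted p = 0.021, 0.000105 and 0.0444). With the group means removed the closest were Nsfl1c (0.82), Psme1 (0.78) and Tuba1b (0.76), a different set.

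For Hbegf the closest over all arrays were Eef1d, a translation elongation factor gene (r = 0.92), Cep41 (0.88) and the transcription factor gene Atf1 (0.88). Eef1d stayed among the closest (0.86) with the group means removed, beside Ccdc165 (0.92) and Sfswap (0.85). For Erbb3 they were Adam23 (0.87), Cadm2 (0.85) and Fam114a1l1 (0.85). All 3 were lower in occluded than in control MCAs, with log2 differences of -0.80, -0.53 and -0.35 (adjusted p = 0.000594, 0.0278 and 0.00586). With the group means removed, Lgi4 (0.89), Gpr37l1 (0.85) and Gpm6b (0.84), all known from glial cells, were closest to Erbb3, and none of these 3 passed the test in any comparison.

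Among the genes that release the ligands, Adam9 and Adam17 rose with the smallest p in the occluded MCAs. Of 14 genes fixed for ligand shedding, 12 were measured, and against control 4 were higher (Adam8, Adam9, Adam17 and Rhbdf2), 2 were lower (Cd9 and Bace1) and 6 did not pass the test in the occluded MCAs. Of all genes 19.3% were higher and 22.9% were lower, and the median log2 difference was -0.02 for the list as for all genes. Adam9, which has been tied to the release of HB-EGF, lay between 10.75 and 11.57 in occluded and between 9.04 and 9.31 in control MCAs, a 4.00-fold difference (log2 difference 2.00, SE 0.12, adjusted p = 1.33e-09). Adam17, the main releasing enzyme of HB-EGF, amphiregulin and TGF-alpha, was 1.96-fold higher (log2 difference 0.97, SE 0.18, adjusted p = 0.000335). Rhbdf2, which brings ADAM17 to the cell surface, had a log2 difference of 0.39 (adjusted p = 0.00339). Cd9, a tetraspanin that binds the HB-EGF precursor, fell by 0.49 on the log2 scale (adjusted p = 0.00127), and the protease gene Bace1 fell by 0.25 (adjusted p = 0.0388).

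None of these 12 genes passed the test in the non-occluded MCAs. Set against the non-occluded MCAs, Adam8, Adam9, Adam17 and Rhbdf2 were higher in the occluded MCAs and Cd9 was lower, with Adam9 at a log2 difference of 1.71 (adjusted p = 2.19e-08) Adam8 at 0.56 (adjusted p = 0.000483) and Cd9 at -0.42 (adjusted p = 0.00571). The count of lower genes in occluded against control MCAs was 1 when control F16, F22 or F21 or occluded F12, F10 or F15 was left out. Adam10 and Rhbdl2 had no probe set in the tables.

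Of the adaptors and kinases that relay the receptor signal, Stat3 and Shc1 rose and Gab2 and Pik3r2 fell in the occluded MCAs. Of 30 genes 29 were measured, and in the occluded MCAs 10 were higher, 8 were lower and 11 did not pass the test against control, beside 19.3% higher and 22.9% lower of all genes, with a median log2 difference of 0.05 against -0.02 for all genes. Stat3, a transcription factor activated by receptor kinases, was 2.62-fold higher (log2 difference 1.39, SE 0.084, adjusted p = 9.18e-10), and the adaptor gene Shc1 was 1.88-fold higher (log2 difference 0.91, SE 0.064, adjusted p = 6.92e-09). The docking protein gene Gab2 was 1.52-fold lower (log2 difference -0.60, adjusted p = 5.88e-08) and the PI3K subunit gene Pik3r2 was 1.60-fold lower (log2 difference -0.68, adjusted p = 2.3e-06). Mapk3, the gene of ERK1, fell by 0.74 on the log2 scale (adjusted p = 4.26e-06).

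In the non-occluded MCAs 2 of the 29 were higher, Stat3 (log2 difference 0.54, adjusted p = 0.000989) and Pik3r1 (0.46, adjusted p = 0.00921), and 2 were lower, Mapk3 (-0.36, adjusted p = 0.0265) and Pik3r2 (-0.30, adjusted p = 0.0349). The count of lower genes was 0 without control F16, non-occluded F12 or non-occluded F15, and 1 without control F36, F26 or F22 or non-occluded F33, F8 or F19. When the occluded MCAs were set against the non-occluded MCAs 9 rose and 7 fell, with Shc1 at a log2 difference of 0.88 (adjusted p = 2.26e-08), Stat3 at 0.84 (adjusted p = 6.78e-07), Gab2 at -0.49 (adjusted p = 1.25e-06) and Gab1 at -0.69 (adjusted p = 8.48e-05). Rps6ka1 had no probe set in the tables.

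Genes listed as brakes on the receptors or on ERK were higher in the occluded MCAs in 12 of 20 measured cases of 21 listed. The list was wide and also took in growth inhibitor genes such as Tob1 and Pdcd4. They were Spry2, Spry4, Spred1, Spred3, Dusp4, Dusp5, Dusp6, Socs4, Socs5, Ptpn1, Ptpn2 and Pdcd4, while Lrig1, Lrig3, Nf1 and Tob1 were lower and 4 did not pass the test. Of all genes 19.3% rose and 22.9% fell, and the median log2 difference was 0.32 against -0.02 for all genes. Ptpn1 and Ptpn2, phosphatases that act on Egfr, were 5.68-fold (log2 difference 2.50, SE 0.11, adjusted p = 2.24e-11) and 5.79-fold higher (log2 difference 2.53, SE 0.13, adjusted p = 1.08e-10). The Sprouty genes Spry2 and Spry4 and the ERK phosphatase gene Dusp6 had log2 differences of 1.02, 1.03 and 0.98 (adjusted p = 0.00024, 1.05e-05 and 1.97e-05), while Spry1 was level with the controls (adjusted p = 0.998). Tob1, a gene of a growth inhibitor that ERK phosphorylates, was 2.18-fold lower (log2 difference -1.12, adjusted p = 1e-07) and Nf1, the gene of a RAS inactivator, fell by 0.28 on the log2 scale (adjusted p = 0.000847).

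In the non-occluded MCAs 3 of the 20 genes of this list were higher, Ptpn1 (log2 difference 0.58, adjusted p = 0.00434), Ptpn2 (0.57, adjusted p = 0.0147) and Spred3, and none was lower. Ptpn1 lay between 8.23 and 8.74 in these arteries, above all controls (7.72 to 8.02) and below all occluded MCAs (10.04 to 10.66). Against the non-occluded MCAs 10 rose and 2 (Tob1 and Spred2) fell in the occluded MCAs, with a median log2 difference of 0.25. Without occluded F8, 4 were lower, as also with the rat as a random block. Erbin had no probe set in the tables.

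Of 20 genes of receptor endocytosis and degradation, all measured, 4 rose and 7 fell in the occluded MCAs against control, beside 19.3% and 22.9% of all genes, with a median log2 difference of -0.04 against -0.02 for all genes. Cblb, a ubiquitin ligase gene, was 2.15-fold higher (adjusted p = 6.44e-06), and Cbl, the gene of the ligase best known for Egfr, had a log2 difference of 0.06 (adjusted p = 0.424). Stam, of the complex that sorts ubiquitin-tagged receptors, was 1.57-fold higher (adjusted p = 3.58e-06), whereas its relative Stam2 fell by 0.33 on the log2 scale (adjusted p = 0.00217). The log2 difference was -0.39 for the clathrin light chain gene Clta (adjusted p = 1.16e-05) and -0.84 for the kinase gene Tnk2 (adjusted p = 1.73e-05).

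None of these 20 genes passed the test in the non-occluded MCAs, although without control F22 1 was lower. Compared with the non-occluded MCAs 5 rose in the occluded MCAs, with Stam at a log2 difference of 0.54 (adjusted p = 3.91e-05) and Cblb at 0.93 (adjusted p = 6.55e-05), and 6 fell, with Clta at -0.30 (adjusted p = 0.000288) and the clathrin heavy chain gene Cltc at -0.30 (adjusted p = 0.000835).

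Early genes that ERK is known to induce were higher in the occluded MCAs in 15 of 20 measured cases of 22 listed. They were Egr1, Egr2, Egr3, Fos, Fosl1, Junb, Myc, Ier2, Ier3, Phlda1, Plaur, Klf6, Klf10, Atf3 and Maff, and Srf was lower. Of all genes 19.3% rose and 22.9% fell. The median log2 difference of the early genes was 0.90 against -0.02 for all genes. Myc was 4.09-fold higher (log2 difference 2.03, SE 0.11, adjusted p = 4.2e-10) and Junb was 4.57-fold higher (log2 difference 2.19, SE 0.20, adjusted p = 9.97e-08), while Srf, the factor of the serum response element, was 1.43-fold lower (log2 difference -0.52, adjusted p = 0.00525). The ETS factor genes Etv4 and Etv5 had log2 differences of -0.04 (adjusted p = 0.76) and -0.10 (adjusted p = 0.4). These genes are induced by many stimuli besides the EGF receptors.

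In the non-occluded MCAs 2 of the 20 were higher, Junb (log2 difference 0.80, adjusted p = 0.0232) and Maff (0.56, adjusted p = 0.0253), and the median log2 difference was 0.19. The count was 1 without control F26, F16 or F22 or non-occluded F12, and 0 without non-occluded F15. In the comparison of occluded with non-occluded MCAs 12 were higher, with Myc at a log2 difference of 1.71 (adjusted p = 7.31e-09) and Fosl1, an AP-1 subunit gene, at 2.45 (adjusted p = 9.63e-07), and Srf was lower (-0.39, adjusted p = 0.0371). The lower count was 0 without non-occluded F12, F15 or F33 or occluded F8 or F15, and 2 without non-occluded F10 or with the rat as a random block. Fosb and Mcl1 had no probe set in the tables.

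**Figure D4:**
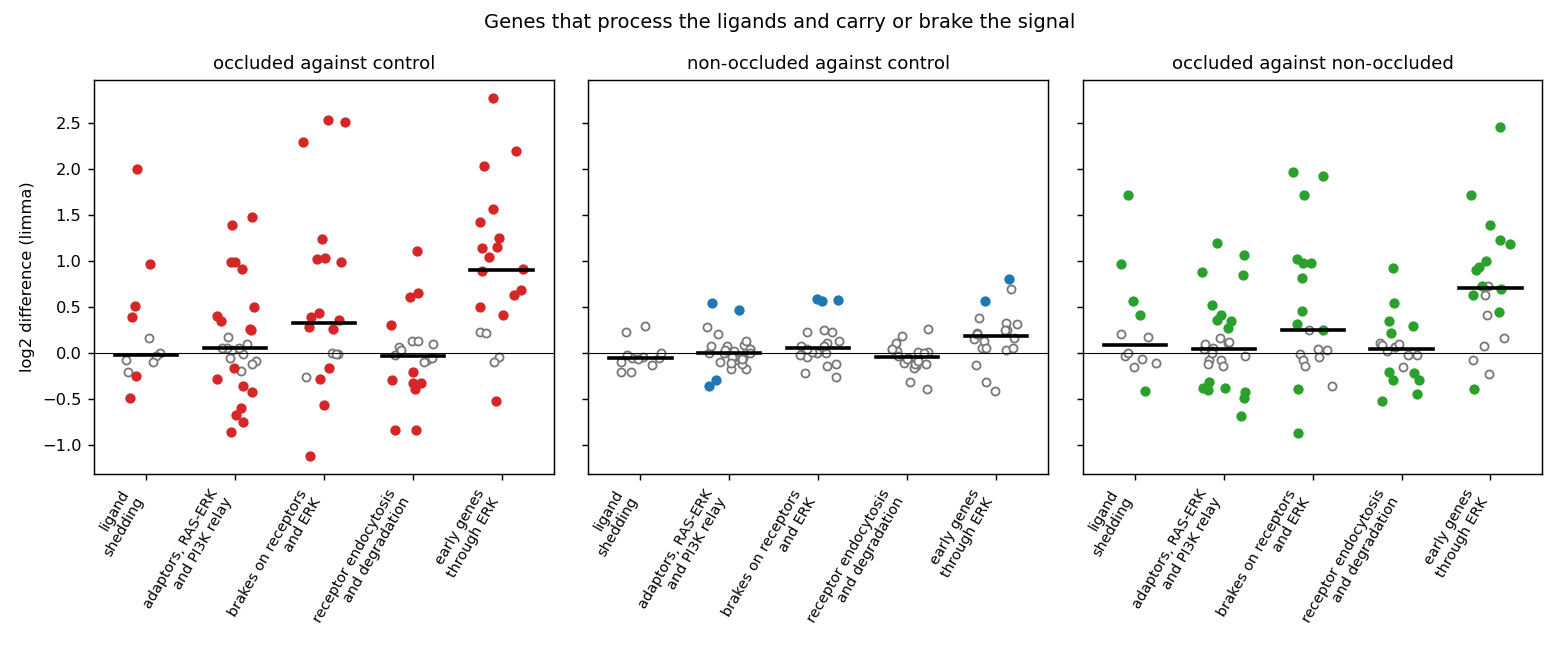
Log2 differences from limma (vertical axis) of the genes on 5 pathway lists in the 3 comparisons. Each point is a gene, filled at an adjusted p under 0.05, and the bar is the median of the list. The early gene list has its median at 0.90 in occluded against control MCAs and at 0.19 in non-occluded against control MCAs.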

How the data were processed

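RNA of 17 MCA segments was hybridised to 1 array each. The authors made the deposited log2 expression values by robust multi-array averaging with quantile normalization in Affymetrix Expression Console 1.1.2 and removed probe sets that in most samples read less than the median negative control. They deposited a table for each comparison (13845, 13810 and 13938 probe sets), whose shared values were identical. Columns with the authors' fold changes, p-values, scores and q-values were not used. The fit used the 13809 of 14143 probe sets that were complete over all arrays. Probe sets with several symbols (327) were left out of gene counts, and 22 symbols that a spreadsheet had turned into dates were counted as they stand. For the deposited positions, the genome build was not given in the sources used here.

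A linear model with 1 mean for each group was fitted to all 17 arrays in limma 3.58.1 (R 4.3.3), with 14 residual and 3.48 prior degrees of freedom, and Benjamini-Hochberg adjustment over the 13809 probe sets. Precision is limited by how many arrays a group holds. The rat pairs the arteries through the labels. After removal of the group means, the 2 arteries of a rat correlated at 0.156 to 0.486 (median 0.352) and the 25 other pairs at -0.294 to 0.327 (median -0.0713). The rat was used as a block in alternative fits only. The alternatives were median centring, cyclic loess, significance analysis of microarrays, an ordinary linear model, an intensity trend with a robust prior, fits to each table alone, stricter calls, a filter on dim probe sets, averaged probe sets, the series value table and leaving out each array. In significance analysis of microarrays a call needed a q-value of 0, the cutoff of the study. The fit was tested on simulated data.

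All genes of the list are named with their values. From each pathway list, the 2 genes with the smallest p in each direction and comparison were named, and further genes were chosen for their known role after their values were seen. The genes and lists were chosen with earlier results of these data known. Summed marker signals are log2 of the summed linear values. Tables and figures were made in Python 3.11.15 with scipy 1.17.1, numpy 2.4.6 and pandas 2.3.3.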

Additional observations from a re-analysis of the deposited data

How the results depend on the processing

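Of 562 log2 differences of single genes under the alternatives, 529 kept their direction and their side of the threshold, 17 lost the call, 9 gained it and 7 changed sign. Egfr and Errfi1 in occluded against control MCAs, and Egfr and Hbegf in occluded against non-occluded MCAs, kept their call under every alternative that was run, with log2 differences of 1.05 to 1.16, 0.87 to 1.00, 1.04 to 1.14 and 0.81 to 1.07. The count of genes of the list higher in non-occluded MCAs, 1 (Errfi1), became 0 with significance analysis of microarrays, with the ordinary model (adjusted p = 0.0501), at an adjusted p under 0.01 and at a fold of at least 1.5, and ranged from 0 to 1 when single arrays were left out. The count of genes lower in occluded against control MCAs, 1 (Erbb3), became 0 with significance analysis of microarrays, at 0.01 and at 1.5-fold, with the same range of 0 to 1. Hbegf in occluded against control MCAs lost its call with significance analysis of microarrays and at 0.01. Significance analysis of microarrays called a gene only at a q-value of 0. Its q-values in occluded against control MCAs were 0.00689 for Hbegf, 0.00844 for Erbb3 and 0.0117 for Erbb4. For Errfi1 in non-occluded against control MCAs the q-value was 0.00559. All of these lay under 0.05, the threshold used for limma. Errfi1 in occluded against non-occluded MCAs passed with cyclic loess (adjusted p = 0.0363) and with the rat as a random (0.37) or fixed (0.40) replicate block, and the blocks changed no other call of the 8 genes. The sign changes were all in differences that did not pass the test. When single arrays were left out, Erbb2 in occluded against control MCAs ranged from -0.0954 to 0.0162, Egfr in non-occluded against control MCAs from -0.0381 to 0.0533 and Erbb3 in occluded against non-occluded MCAs from -0.172 to 0.0283. Erbb4 in occluded against control MCAs lost its call with significance analysis of microarrays, at 0.01 and at 1.5-fold, and Egf gained it with the fit to its own table (adjusted p = 0.0457). The cause of these changes was not tested, other than where an alternative has a stricter call or fewer arrays. Over all genes, 2541 higher and 3016 lower genes in occluded against control MCAs became 1241 and 1171 with significance analysis of microarrays and 937 and 880 at 1.5-fold. In non-occluded against control MCAs 236 and 280 became 120 and 105 or 92 and 31, and 84 and 60 at 0.01. In occluded against non-occluded MCAs 2260 and 2078 became 1216 and 741 or 741 and 481, 1608 and 1305 at 0.01, 2701 and 2663 under the random replicate block, 2489 and 2561 under the fixed replicate block and 2052 and 2281 with median centring. Of the pathway list counts, 635 of 710 stayed within 1.5 times of the reported count and 75 did not, 63 of them counts of at most 4 genes. The standard errors of the 8 genes lay between 0.070 and 0.191 on the log2 scale.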
